A study of Mus musculus with 15 samples.

Results

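NF-κB feedback and target genes, 10 in all, were followed across 105K tumors in which B7-H3 had been targeted by shRNA. They are NFKBIA, TNFAIP3, NFKB1, NFKB2, RELB, BIRC3, TRAF1, ICAM1, TNFAIP2 and TNF. They were selected by symbol from the deposited expression table, which lists mouse symbols in capitals, and all 10 were found among 24891 genes. The 15 RNA-seq libraries fall into 5 groups of 3. In bulk tumors the hairpin was either sh-NC, which has no target, or sh-B7-H3 (1). Sorted cells came with these hairpins and with a separate one, sh-B7-H3 (2), in a group of its own. Both B7-H3 hairpins are directed at Cd276, the gene of B7-H3. 105K is a Tsc2-deficient line that was derived from a kidney tumor arising in a Tsc2+/- animal, so controls lack Tsc2 function as well. The cells were puromycin-selected pools rather than single clones, and were grown under the skin of wild-type C57BL/6J mice. The mice were male and 6 weeks old at inoculation. Sorting removed non-tumor cells by magnetic depletion, so the sorted fraction was not selected for a tumor marker.

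NF-κB transcription factors are dimers of Rel family proteins that wait in the cytoplasm bound to IκB inhibitors. Signals from TNF family receptors, Toll-like receptors and interleukin-1 receptors release them, and they then switch on inflammatory genes together with their own inhibitors, which close a negative feedback loop. In kidney epithelium and in carcinoma cells the same system is known for controlling adhesion molecules, cytokines and survival genes.

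Values below are FPKM, which are normalized to gene length and library size, divided by a median-ratio factor of each library, called scaled FPKM. Differences were fitted with limma on log2(scaled FPKM + 1), a scale that understates the change of low genes. A gene was tested if 3 or more libraries of a comparison reached 1 scaled FPKM, and it passed the test if the Benjamini-Hochberg adjusted p over all genes tested was below 0.05. TNF reached that level in 2 of the 15 libraries and was not tested in any comparison, so counts refer to the 9 other genes. The sorted comparisons with each shRNA share the same sh-NC libraries.

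The number of reads is not in the table, and the spacing of low values put the depth of the libraries between 0.468 and 1 times that of sorted sh-NC replicate 1. Replicate 1 of sorted cells labelled sh-B7-H3 (2) stood apart, since its 10 leukocyte markers added up to 348 scaled FPKM. They added up to 4.79 to 11.2 in the other 8 sorted libraries and to 334 to 656 in bulk tumors. Calls that are lost without this library are given with and without it. CD276 measured 17.3 to 34.0 scaled FPKM in sorted sh-NC cells, 7.29 to 14.0 with sh-B7-H3 (1) and 23.3 to 25.7 with sh-B7-H3 (2), and 20.8 to 23.5 in bulk sh-NC against 17.8 to 24.4 in bulk sh-B7-H3 (1) tumors. The sorted libraries labelled sh-B7-H3 (2) and the bulk libraries labelled sh-B7-H3 (1) thus overlapped their controls in CD276 RNA, and directions drawn from them rest on their labels. Epithelial markers (8 of 8 found) summed to 963 to 1161 scaled FPKM in sorted sh-NC cells and to 1710 to 2224 in the sorted libraries labelled sh-B7-H3. Bulk tumors summed to 888 to 1559, so epithelial RNA was visible in every group. EPCAM and the keratins were higher in all sorted libraries labelled sh-B7-H3 than in sh-NC. CDH1 (210 to 357 with sh-NC, 166 to 229 in the others), PAX8 (20.7 to 34.7 and 18.3 to 23.0) and PAX2 overlapped.

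In sorted cells, with the libraries of both shRNAs pooled against sh-NC, 4 of the 9 tested genes rose and none fell. These were NFKBIA and TNFAIP3, which restrain NF-κB, the ubiquitin ligase gene BIRC3 and the adhesion gene ICAM1. ICAM1 was below 1 scaled FPKM in every sorted sh-NC library. It enters the counts of sorted cells against sh-NC only through the libraries where it was high. In this fit of 6 libraries labelled sh-B7-H3 against 3 sh-NC libraries, 12.6% of all genes tested were higher past the threshold and 7.92% were lower. The median log2 difference of the 9 genes was 0.35, against 0.01 over all 11424 genes tested. In the separate comparisons, 2 (NFKBIA and ICAM1) rose and none fell with sh-B7-H3 (1), where 9.03% of all genes were higher and 4.38% lower. With sh-B7-H3 (2) 6 rose and none fell, where 11.7% of all genes were higher and 7.44% lower. In bulk tumors 1 of 9 rose and none fell with sh-B7-H3 (1), where 12.8% of all genes were higher and 8.52% lower.

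**Figure D1:**
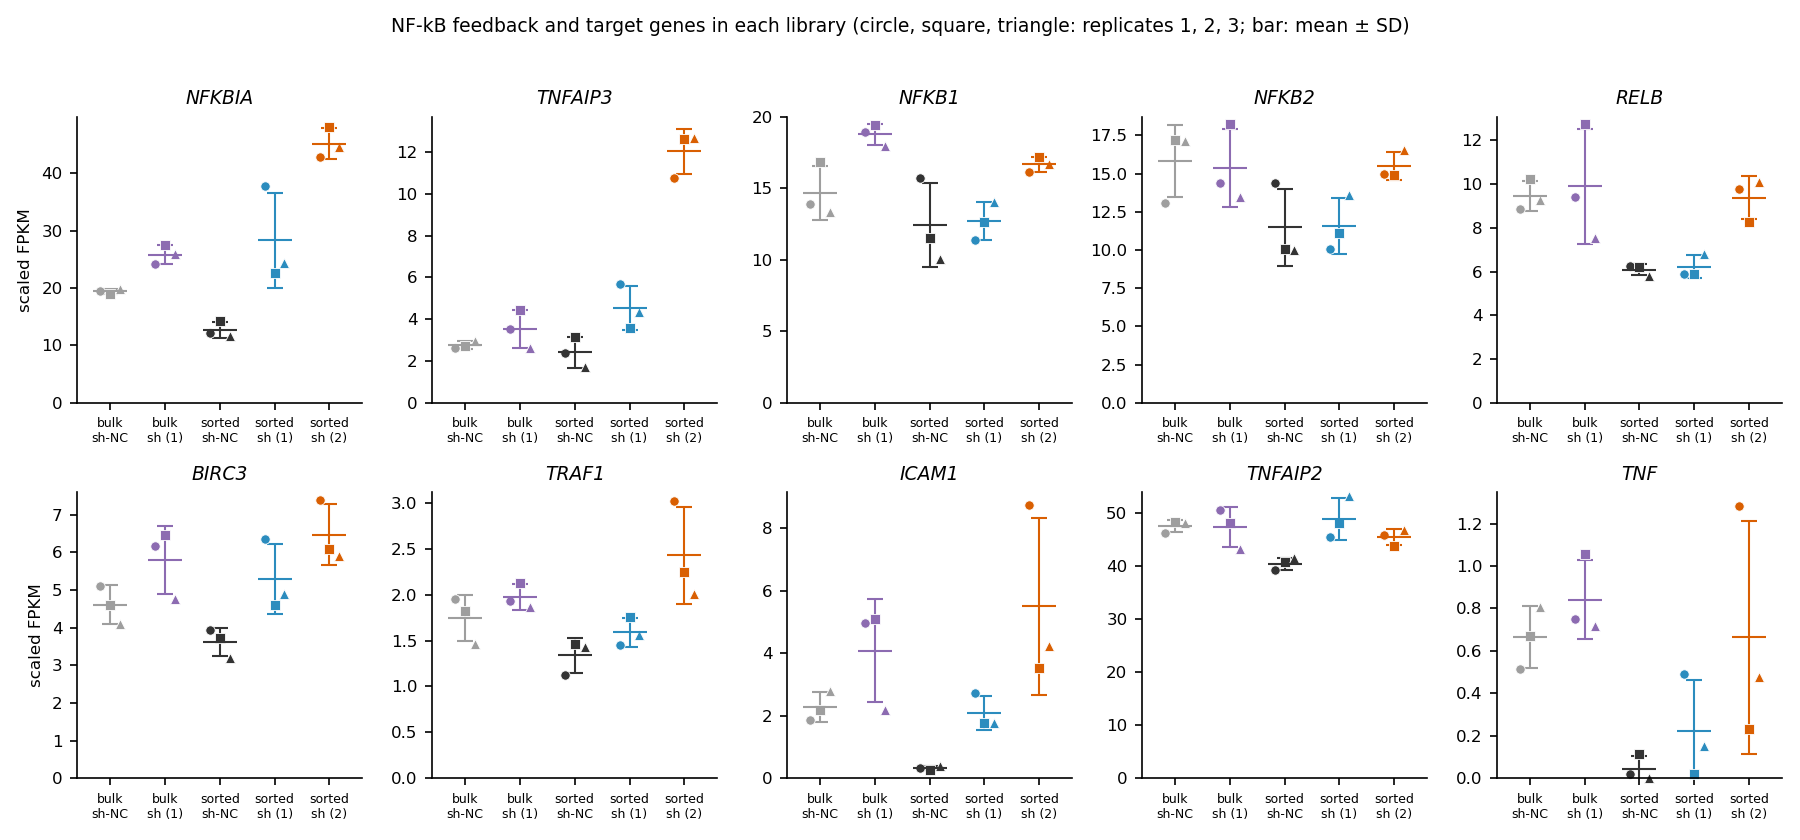
Scaled FPKM (vertical axes from 0, a separate range for each gene) of the 10 genes in the 5 groups, with 1 point for each library and bars for the mean ± SD of 3 libraries (the lower arms for TNF in sorted sh-NC and sorted sh-B7-H3 (1) are cut off at 0). NFKBIA, TNFAIP3 and ICAM1 are highest on average in sorted sh-B7-H3 (2) cells, and TNFAIP2 lies between 39.2 and 53.2 in all 15 libraries.

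Stretches of the promoters are shown for the genes whose 300-base windows, from 250 bases before to 50 after a start site, held a κB motif, the site type that NF-κB dimers bind, or a motif of STAT factors. RefSeq (GRCm38.p6) windows were found for 8 of the 10 genes, in 11 windows, and not for NFKB1 and RELB. The general κB consensus was found in 6 of the 11 windows and in 8.46% of all 32851 windows. These windows belong to 4 of the 8 genes, NFKBIA, TNFAIP3, NFKB2 and TNFAIP2. Overlapping NFKB2 windows share the site printed below, which is counted in each of them for both κB motifs. The narrower κB motif GGGANTTTC was found in 3 of 11 windows, of 2 of the 8 genes (NFKBIA and NFKB2), and in 1.11% of all windows. Its matches in the NFKBIA and NFKB2 stretches below overlap the general consensus, and 1 further match in each gene does not. The motif TTCNNNGAA was found in windows of ICAM1 and NFKB2 and in 8.3% of all windows. Both strands were searched. Each line below gives up to 30 bases on the strand of the gene, 5′ to 3′, with the matched motif in capitals.
NFKBIA: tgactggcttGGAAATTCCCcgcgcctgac
TNFAIP3 upstream: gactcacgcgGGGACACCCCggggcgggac
TNFAIP3 near the start: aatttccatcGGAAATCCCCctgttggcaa
NFKB2: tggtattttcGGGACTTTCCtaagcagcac
TNFAIP2: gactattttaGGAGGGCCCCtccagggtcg
ICAM1: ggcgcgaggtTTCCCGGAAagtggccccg
These stretches lie at chr12:55492657-55492686 for NFKBIA (minus strand, motif from -29 to -20 relative to the start site), chr10:19015516-19015545 and chr10:19015403-19015432 for TNFAIP3 (minus strand, motifs from -125 to -116 and from -12 to -3), chr19:46305695-46305724 for NFKB2 (plus strand), chr12:111442627-111442656 for TNFAIP2 (plus strand, motif from -24 to -15) and chr9:21015888-21015916 for ICAM1 (plus strand, motif from -42 to -34). A match describes letters in the window and not a bound site.

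NFKBIA (chr12:55489409-55492647) encodes IκBα, an inhibitor that NF-κB itself induces and that ends its activity. It measured 12.2, 14.3 and 11.7 scaled FPKM in replicates 1, 2 and 3 of sorted sh-NC cells, 37.8, 22.6 and 24.4 with sh-B7-H3 (1), and 42.8, 48.0 and 44.6 with sh-B7-H3 (2). Every library labelled sh-B7-H3 lay above every sh-NC library, and the libraries of the shRNAs did not overlap either. The log2 difference from sh-NC was 1.06 with sh-B7-H3 (1) (SE 0.20, limma adjusted p = 0.0101) and 1.75 with sh-B7-H3 (2) (SE 0.13, limma adjusted p = 0.000101). Over both shRNAs it was 1.41 (SE 0.24, limma adjusted p = 0.00181), and it passed the test in all 16 alternatives run. Without the leukocyte-rich library the difference with sh-B7-H3 (2) was 1.79 (limma adjusted p = 0.000676). That library held the lowest NFKBIA value of the 3 labelled sh-B7-H3 (2).

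In bulk tumors NFKBIA measured 19.5, 19.0 and 19.8 scaled FPKM with sh-NC and 24.1, 27.4 and 25.9 with sh-B7-H3 (1). The groups did not overlap, and the log2 difference was 0.39 (SE 0.09, limma adjusted p = 0.0227). The call was lost without sh-NC replicate 1, 2 or 3 (adjusted p = 0.0625, 0.0829 and 0.0732) or sh-B7-H3 (1) replicate 1 (0.0763), and over all alternatives the adjusted p ran from 0.0226 to 0.62. From highest to lowest mean, the order was sorted sh-B7-H3 (2), sorted sh-B7-H3 (1), bulk sh-B7-H3 (1), bulk sh-NC and sorted sh-NC, with overlap of neighbours only between sorted and bulk sh-B7-H3 (1).

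TNFAIP3 (chr10:19000910-19015410) encodes A20, a ubiquitin-editing enzyme that shuts down signaling upstream of NF-κB. It measured 2.38, 3.16 and 1.71 scaled FPKM in sorted sh-NC cells, 5.68, 3.60 and 4.33 with sh-B7-H3 (1), and 10.8, 12.6 and 12.7 with sh-B7-H3 (2). The 3 sorted groups did not overlap, and the mean with sh-B7-H3 (2) was 4.98 times that of sh-NC, against 1.88 times with sh-B7-H3 (1). The log2 difference with sh-B7-H3 (2) was 1.95 (SE 0.18, limma adjusted p = 0.000248), and 2.02 (limma adjusted p = 0.00126) without the leukocyte-rich library, which again held the lowest value of its group. With sh-B7-H3 (1) it was 0.70 (SE 0.20, limma adjusted p = 0.0585) and passed only without sh-NC replicate 2 among the left-out libraries (0.85, adjusted p = 0.0464, with a range of 0.00507 to 0.219 over all alternatives).

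Over both shRNAs the TNFAIP3 difference was 1.32 (SE 0.37, limma adjusted p = 0.0275). It missed the threshold without sh-NC replicate 1, 2 or 3 (limma adjusted p = 0.0601, 0.0554 and 0.0932), without sh-B7-H3 (2) replicate 1 (0.0524), with no filter (0.0668) and with the replicate number as a block (0.0653), in a range down to 2.04e-05. Bulk tumors measured 2.63, 2.70 and 2.96 scaled FPKM with sh-NC and 3.51, 4.43 and 2.63 with sh-B7-H3 (1). These groups overlapped, and the log2 difference of 0.25 (SE 0.16, limma adjusted p = 0.277) did not pass. Sorted sh-B7-H3 (2) cells stood above all other groups in TNFAIP3, whereas each of the other 4 groups overlapped its neighbour in the order of means.

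ICAM1 (chr9:21015940-21028814) encodes a surface adhesion molecule bound by leukocyte integrins. In sorted cells it measured 0.329, 0.264 and 0.393 scaled FPKM with sh-NC, 2.73, 1.77 and 1.76 with sh-B7-H3 (1), and 8.73, 3.53 and 4.22 with sh-B7-H3 (2). The 3 groups did not overlap, and the ratio of means to sh-NC was 6.35 with sh-B7-H3 (1) and 16.7 with sh-B7-H3 (2), the latter including 8.73 in the leukocyte-rich library. On the log2(scaled FPKM + 1) scale the differences were 1.20 with sh-B7-H3 (1) (SE 0.15, limma adjusted p = 0.000961) and 2.21 with sh-B7-H3 (2) (SE 0.27, limma adjusted p = 0.00103).

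Since sh-NC cells were below 1 scaled FPKM, ICAM1 was tested only because all 3 libraries of a B7-H3 shRNA passed that level, and leaving out any 1 of them removed it from the single-shRNA tests. Over both shRNAs the difference was 1.70 (SE 0.34, limma adjusted p = 0.00545), and 1.47 (limma adjusted p = 0.00115) without the leukocyte-rich library. With a pseudocount of 0.1 it was 2.97 (limma adjusted p = 0.000743, in a range of 0.000112 to 0.0282 over all alternatives).

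Bulk tumors held 1.85, 2.19 and 2.79 scaled FPKM of ICAM1 with sh-NC and 4.96, 5.10 and 2.18 with sh-B7-H3 (1). Replicate 3 of the latter lay inside the control range, and the log2 difference was 0.58 (SE 0.26, limma adjusted p = 0.148). Without that library it was 0.89 (limma adjusted p = 0.0135, with a range of 0.0135 to 0.371 over all alternatives). Within each bulk group the libraries had the same order in ICAM1 as in summed leukocyte markers, which were 356, 413 and 530 scaled FPKM with sh-NC and 535, 656 and 334 with sh-B7-H3 (1). TNFAIP3 and TNF had that order too. NFKBIA, NFKB1, NFKB2, RELB, BIRC3, TRAF1 and TNFAIP2 did not keep it in both groups, and BIRC3 and TRAF1 ran the opposite way with sh-NC. With 3 libraries in a group this is a description, and the part of leukocytes in these values was not tested.

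**Figure D2:**
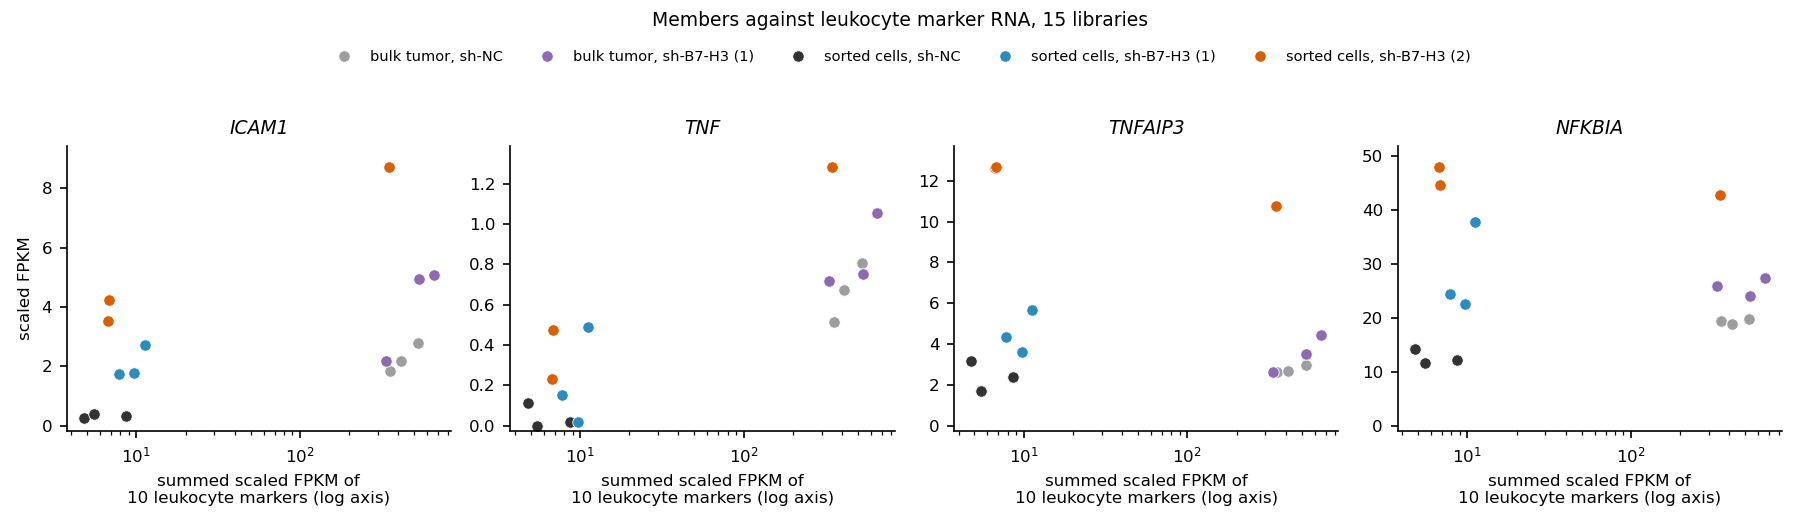
Scaled FPKM of ICAM1, TNF, TNFAIP3 and NFKBIA (vertical axes) against the summed scaled FPKM of 10 leukocyte markers (horizontal log axis), with 1 point for each of 15 libraries. The single orange point at 348 on the horizontal axis is sorted sh-B7-H3 (2) replicate 1, which is highest of all libraries for ICAM1 and TNF and lowest of its group for TNFAIP3 and NFKBIA.

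TNF (chr17:35199367-35202007) encodes the cytokine that is both an activator and a product of NF-κB. In sorted sh-NC cells it was listed at 0.0180, 0.115 and 0 scaled FPKM. It was 0.491, 0.0202 and 0.153 with sh-B7-H3 (1) and 1.28, 0.2302 and 0.477 with sh-B7-H3 (2), where the highest value is that of the leukocyte-rich library. All 3 sh-B7-H3 (2) libraries lay above sh-NC (p = 0.1 by a two-sided exact permutation test, which cannot go lower with 3 against 3), and sh-B7-H3 (1) overlapped sh-NC. Over both shRNAs the exact two-sided permutation test gave p = 0.179. Bulk tumors held 0.514, 0.672 and 0.807 with sh-NC and 0.753, 1.05 and 0.717 with sh-B7-H3 (1), which overlapped (exact two-sided permutation test, p = 0.4).

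BIRC3 (chr9:7847468-7873205) encodes cIAP2, a ubiquitin ligase of TNF receptor complexes. Its reads could have been shared with the close paralog Birc2 in the authors' counting. It measured 3.93, 3.73 and 3.19 scaled FPKM in sorted sh-NC cells, 6.34, 4.61 and 4.90 with sh-B7-H3 (1), and 7.39, 6.09 and 5.90 with sh-B7-H3 (2). All 6 libraries labelled sh-B7-H3 lay above sh-NC, and the log2 difference over both shRNAs was 0.56 (SE 0.13, limma adjusted p = 0.0134). Leaving out sh-NC replicate 3 ended this call (0.50, limma adjusted p = 0.0534, in a range down to 0.00259). The difference with sh-B7-H3 (2) was 0.69 (SE 0.14, limma adjusted p = 0.0105), or 0.60 (limma adjusted p = 0.0379) without the leukocyte-rich library, and with sh-B7-H3 (1) it was 0.44 (SE 0.15, limma adjusted p = 0.101). In bulk tumors BIRC3 was 5.12, 4.61 and 4.09 with sh-NC and 6.18, 6.45 and 4.77 with sh-B7-H3 (1), which overlapped, and the log2 difference was 0.27 (SE 0.13, limma adjusted p = 0.174).

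TRAF1 (chr2:34941750-34961812) encodes a signaling adaptor that joins TNF receptors to cIAP proteins. It measured 1.12, 1.46 and 1.43 scaled FPKM in sorted sh-NC cells, 1.45, 1.76 and 1.56 with sh-B7-H3 (1), and 3.02, 2.25 and 2.01 with sh-B7-H3 (2). Only sh-B7-H3 (2) lay wholly above sh-NC, with a log2 difference of 0.54 (SE 0.15, limma adjusted p = 0.0382). That call was lost when any 1 of the 6 libraries was left out (limma adjusted p = 0.0548 to 0.11, and 0.0990 without the leukocyte-rich one). In bulk tumors TRAF1 was 1.95, 1.82 and 1.47 with sh-NC and 1.93, 2.13 and 1.86 with sh-B7-H3 (1), a log2 difference of 0.12 (limma adjusted p = 0.48).

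The genes of the NF-κB subunits follow. NFKB1 (chr3:135584655-135691969) encodes p105, the precursor of p50, and NFKB2 (chr19:46300994-46312400) encodes p100, the precursor of p52. NFKB1 measured 15.7, 11.5 and 10.1 scaled FPKM in sorted sh-NC cells, 11.4, 12.6 and 14.1 with sh-B7-H3 (1), and 16.1, 17.2 and 16.7 with sh-B7-H3 (2). NFKB2 measured 14.4, 10.04 and 10.002, then 10.1, 11.1 and 13.6, and then 15.01, 14.9 and 16.5 in the same order. For both genes the sh-B7-H3 (2) libraries were above all other sorted libraries, and sh-B7-H3 (1) overlapped sh-NC.

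Their log2 differences with sh-B7-H3 (2) were 0.42 for NFKB1 (SE 0.17, limma adjusted p = 0.127) and 0.42 for NFKB2 (SE 0.16, limma adjusted p = 0.118). Both passed without sh-NC replicate 1, the highest control library in each (0.59 and 0.58, limma adjusted p = 0.00791 and 0.00727, where all alternatives reached up to 0.33 and 0.349). With sh-B7-H3 (1) the differences were 0.05 for NFKB1 (limma adjusted p = 0.913) and 0.02 for NFKB2 (limma adjusted p = 0.967). In bulk tumors NFKB1 was 13.9, 16.8 and 13.3 with sh-NC and 18.9, 19.4 and 18.0 with sh-B7-H3 (1), with no overlap and a log2 difference of 0.34 (SE 0.11, limma adjusted p = 0.0634). Bulk NFKB2 overlapped, at 13.1, 17.2 and 17.1 against 14.4, 18.3 and 13.5.

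RELB (chr7:19606217-19629438) encodes the Rel protein that pairs with p52 in the noncanonical pathway. It measured 6.27, 6.22 and 5.78 scaled FPKM in sorted sh-NC cells, 5.91, 5.91 and 6.83 with sh-B7-H3 (1), and 9.76, 8.28 and 10.1 with sh-B7-H3 (2). Control and sh-B7-H3 (1) cells overlapped within 5.78 to 6.83, and the sh-B7-H3 (2) libraries stood above both. The difference with sh-B7-H3 (2) was 0.55 (SE 0.13, limma adjusted p = 0.0198). It missed the threshold without sh-NC replicate 2 (limma adjusted p = 0.0738), sh-B7-H3 (2) replicate 1 (0.0694) or sh-B7-H3 (2) replicate 3 (0.12, the highest over all alternatives, the lowest being 0.0112). With sh-B7-H3 (1) it was 0.02 (SE 0.12, limma adjusted p = 0.941), and bulk tumors overlapped at 8.89, 10.2 and 9.30 with sh-NC against 9.42, 12.7 and 7.54.

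TNFAIP2 (chr12:111442450-111455018), a gene named for its induction by TNF, had the highest mean scaled FPKM of the 10 genes in all 5 groups, closely followed by NFKBIA in sorted sh-B7-H3 (2) cells (45.5 against 45.1). It measured 39.2, 40.7 and 41.4 scaled FPKM in sorted sh-NC cells, 45.4, 48.1 and 53.2 with sh-B7-H3 (1), and 45.9, 43.8 and 46.7 with sh-B7-H3 (2). All 6 libraries labelled sh-B7-H3 lay above sh-NC, but the log2 difference was only 0.22 (SE 0.09, limma adjusted p = 0.119). In bulk tumors the groups overlapped, at 46.1, 48.2 and 48.0 against 50.6, 48.1 and 43.2.

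**Figure D3:**
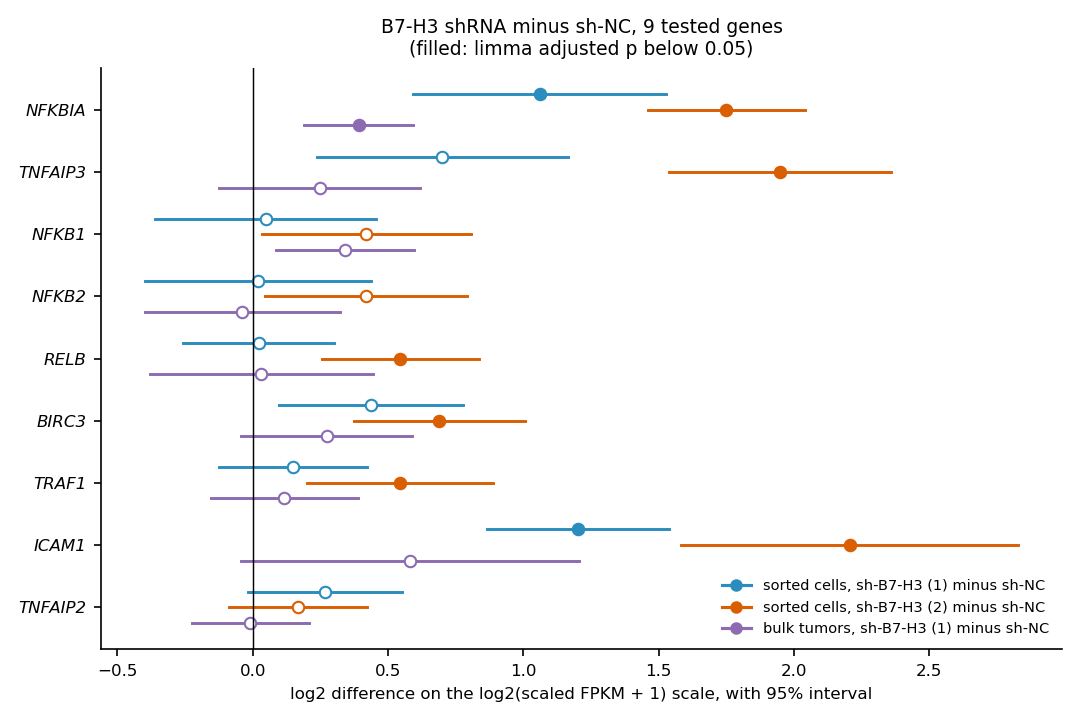
Log2 difference from sh-NC (horizontal axis, log2(scaled FPKM + 1) scale) of the 9 tested genes, with 95% intervals, for sorted sh-B7-H3 (1), sorted sh-B7-H3 (2) and bulk sh-B7-H3 (1), where filled points passed the test. NFKBIA is the single gene filled in all 3 comparisons, with 1.06, 1.75 and 0.39, and ICAM1 reaches 2.21 in sorted sh-B7-H3 (2) cells.

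All 9 tested genes had every sh-B7-H3 (2) library above every sh-NC library in sorted cells, an order that 20.0% of all genes tested showed. TNF was not tested and showed the same order at low values. With sh-B7-H3 (1) every library lay above every sh-NC library for 5 genes, NFKBIA, TNFAIP3, TNFAIP2, BIRC3 and ICAM1, where 16.7% of all genes did so. The same 5 genes had all 6 libraries labelled sh-B7-H3 above sh-NC, as 13.6% of all genes did. In each of these counts ICAM1 was tested only through its high libraries. In bulk tumors 2 genes, NFKBIA and NFKB1, had every sh-B7-H3 (1) library above every sh-NC library, as 24.4% of all genes did. The shRNAs were next compared directly. Of the 9 tested genes, TNFAIP3 and RELB were lower with sh-B7-H3 (1) than with sh-B7-H3 (2) past the threshold, where 1.64% of all genes tested were lower. The log2 difference, (1) minus (2), was -1.25 for TNFAIP3 (SE 0.15, limma adjusted p = 0.00821) and -0.52 for RELB (SE 0.11, limma adjusted p = 0.0441). For 7 of the 9 tested genes all sh-B7-H3 (1) libraries lay below all sh-B7-H3 (2) libraries, as 13.9% of all genes tested did.

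The direct comparison depended on the design. Same-numbered libraries of the shRNAs deviated together, with correlations of 0.32 to 0.36. With the replicate number as a block, 849 of all 11239 genes tested were lower with sh-B7-H3 (1), against 184 without the block. Of the 9 genes 5 were then lower past the threshold. These were TNFAIP3 (limma adjusted p = 0.0190), RELB (0.0200), ICAM1 (0.0224), NFKB2 (0.0325) and NFKB1 (0.0337). Without the block, NFKBIA had a difference of -0.69 (95% interval -1.11 to -0.27, limma adjusted p = 0.0842), and it passed without sh-B7-H3 (1) replicate 1, its highest library of that group (-0.91, limma adjusted p = 0.0118, in a range up to 0.257). ICAM1 differed by -1.004 (95% interval -1.65 to -0.36, limma adjusted p = 0.0947), and by -0.67 (limma adjusted p = 0.0420) without the leukocyte-rich library. TNFAIP3 then differed by -1.32 (limma adjusted p = 0.00323). The TNFAIP3 call was lost without replicate 3 of either shRNA (limma adjusted p = 0.0510 and 0.0534), and the RELB call without any 1 library except the leukocyte-rich one (0.0898 to 0.201).

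Bulk and sorted controls were compared to see where the genes are expressed in control tumors. Of the 9 genes 3 (ICAM1, RELB and NFKBIA) were higher in bulk tumors, where 10.4% of all genes tested were, and none was lower, where 6.48% were. ICAM1 was below 1 scaled FPKM in every sorted sh-NC library, so it entered this count only through the bulk libraries, where it was high. The log2 difference, bulk minus sorted, was 1.29 for ICAM1 (SE 0.13, limma adjusted p = 0.000422), 0.56 for RELB (SE 0.12, limma adjusted p = 0.0179) and 0.57 for NFKBIA (SE 0.12, limma adjusted p = 0.0192). Leaving out bulk sh-NC replicate 1, 2 or 3 ended the calls of RELB (limma adjusted p = 0.0868, 0.143 and 0.0963) and NFKBIA (0.0987, 0.133 and 0.107) and took ICAM1 out of the test, and RELB also failed without sorted sh-NC replicate 2 (0.0757). Without sorted sh-NC replicate 1, NFKB1 and NFKB2 passed as well (limma adjusted p = 0.0464 and 0.0158, with ranges up to 0.943 and 0.804). Leukocyte markers (10 of 10 found) summed to 356 to 530 scaled FPKM in these bulk tumors and to 4.79 to 8.66 in the sorted cells. In tissue, fewer cells of a type and less RNA per cell cannot be told apart.

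An interaction term tested whether the effect of sh-B7-H3 (1) differed between the materials. By limma 0 of the 9 genes passed, where 0.464% of all genes tested did, and 1 gene, NFKBIA, had an unadjusted p below 0.05. Its effect was larger in sorted cells by 0.67 on the log2 scale (95% interval 0.16 to 1.17, limma adjusted p = 0.261). The interaction was 0.62 for ICAM1 (95% interval -0.09 to 1.33, limma adjusted p = 0.382) and 0.45 for TNFAIP3 (95% interval -0.14 to 1.05, limma adjusted p = 0.429). A difference between the materials was thus not shown for any of the 9 genes.

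Marker levels moved with several of these comparisons. Macrophage markers (10 of 10 found) summed to 31.0 to 44.7 scaled FPKM in sorted sh-NC cells, 68.3 to 95.2 with sh-B7-H3 (1) and 61.7 to 409 with sh-B7-H3 (2). CD68, the lysosomal macrosialin, made up 74.6% to 87.6% of that sum in every sorted library except the leukocyte-rich one. CSF1R was higher too, at 0.567 to 1.30 with sh-NC and 4.76 to 5.21 with sh-B7-H3 (1). It was 7.75 and 7.32 in replicates 2 and 3 of sh-B7-H3 (2). C1QA, a complement chain, was lower in these replicates, at 0.873 and 0.863 against 1.38 to 2.73 with sh-NC. C1QB was 0.942 and 1.17 there, against 1.35 to 3.28 with sh-NC. T cell markers (9 of 10 found) summed to 0.551 to 0.954, 1.38 to 1.63 and 1.85 to 24.9 in the same groups, with CD3E and CD4 at 0 in all 3 sh-NC libraries. The kinase gene LCK made up 56.7% to 82.6% of that sum in the same 8 libraries. Neutrophil markers (8 of 8 found) summed to 0.117 to 1.05 with sorted sh-NC, 0.282 to 0.484 with sh-B7-H3 (1) and 2.29 to 11.4 with sh-B7-H3 (2). Fibroblast markers (8 of 8 found) summed to 48.9 to 93.1, 61.0 to 90.5 and 121 to 184 in the same order. DCN was the highest of them in every sorted library but sh-NC replicate 2, at 23.8% to 59.0% of the sum. COL3A1 was 26.4 and 27.8 in replicates 2 and 3 of sh-B7-H3 (2), against 6.28 to 12.7 with sh-NC. POSTN went the other way, at 7.29 and 7.08 against 14.3 to 17.2, as did THY1, at 0.369 and 0.451 against 0.464 to 0.610. In bulk tumors T cell markers summed to 2.76 to 3.09 with sh-NC and 6.73 to 22.1 with sh-B7-H3 (1). In the same order, neutrophil markers summed to 5.79 to 11.99 and 2.20 to 3.66, and fibroblast markers to 135 to 244 and 417 to 843. The lower neutrophil sum lay mainly in S100A8 (2.29 to 6.05, then 0.903 to 1.18) and S100A9 (2.24 to 3.83, then 0.177 to 0.872). CSF3R of that list did not fall, at 0.639 to 0.996 and then 0.741 to 1.61. The part of any of these cells in the results was not tested.

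Other genes of the pathway were counted by role. In sorted cells over both shRNAs, 12.6% of all genes were higher and 7.92% lower. Of 6 tested genes among the remaining Rel and IκB family, 3 rose there, also without the leukocyte-rich library, and none fell. These were NFKBIZ, a nuclear IκB protein (1.37, SE 0.20, limma adjusted p = 0.000815), REL, which encodes c-Rel (0.74, SE 0.21, limma adjusted p = 0.0303), and NFKBIE, which encodes IκBε (0.62, limma adjusted p = 0.0156). NFKBIZ measured 4.79 to 6.47 scaled FPKM with sh-NC, and 11.5 to 21.5 in the 6 libraries labelled sh-B7-H3. REL was 0.783 to 0.932 with sh-NC and 1.47 to 4.14 in the 6 others, so it was tested only because the libraries where it was high reached the filter level. RELA, which encodes the p65 subunit, measured 19.9 to 36.1 with sh-NC and 17.0 to 26.1 in the 6 others, with a log2 difference of -0.23 (limma adjusted p = 0.424). NFKBIB differed by -0.16 (limma adjusted p = 0.335) and BCL3 by -0.004 (limma adjusted p = 0.992). NFKBID was not tested, with 2.86 scaled FPKM in the leukocyte-rich library and at most 0.137 in the other 8 sorted ones. In bulk tumors REL alone rose among these genes (0.76, SE 0.12, limma adjusted p = 0.00817), again tested only through its high group (0.614 to 0.804 with sh-NC and 1.62 to 2.11 with sh-B7-H3 (1)).

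Genes upstream were counted next, in the same fit, in which 12.6% of all genes were higher and 7.92% lower. Among 27 kinases and adaptors, 3 rose and none fell in sorted cells over both shRNAs, namely IKBKE, an IκB kinase relative (0.61, limma adjusted p = 0.00838), MYD88, the adaptor of Toll-like receptors (0.39, limma adjusted p = 0.0259), and RBCK1, a subunit of the linear ubiquitin ligase (0.34, limma adjusted p = 0.0375). Without the leukocyte-rich library IKBKE alone passed (MYD88 0.0502 and RBCK1 0.0620, limma adjusted p). MAP3K14, the kinase NIK that starts p100 processing, measured 1.98 to 2.39 scaled FPKM with sh-NC and 2.50 to 3.83 in the 6 others (0.34, limma adjusted p = 0.0876). The receptor genes TNFRSF1A, TNFRSF1B and LTBR differed by 0.25, -0.22 and 0.12 (limma adjusted p = 0.127, 0.396 and 0.445). Of 12 tested receptors 4 rose and 2 fell. IL18R1, a chain of the interleukin-18 receptor, rose most (3.13, limma adjusted p = 6.57e-06), followed by TLR3, a sensor of double-stranded RNA (1.77, limma adjusted p = 9.07e-05), whereas TNFRSF9, which encodes 4-1BB, fell by 1.52 (limma adjusted p = 0.0328) and TLR4 by 0.41 (limma adjusted p = 0.0442). Both falls missed the threshold without the leukocyte-rich library (limma adjusted p = 0.0617 and 0.0856) and with the replicate block (0.0530 and 0.0860), where 4 receptors rose and none fell. Of 3 tested ligands IL1A rose (1.52, limma adjusted p = 0.0196), from 0.114 to 0.377 scaled FPKM with sh-NC to 1.11 to 6.87, and was thus tested only through its high libraries.

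Among 11 other negative regulators, 3 rose and 1 fell in sorted cells over both shRNAs, where 12.6% of all genes were higher and 7.92% lower. ZC3H12A, an RNase that cuts inflammatory mRNAs (0.64, limma adjusted p = 0.0259), CYLD, a deubiquitinase (0.36, limma adjusted p = 0.0393), and the ubiquitin ligase gene ITCH (0.34, limma adjusted p = 0.0321) rose, and PDLIM2, which promotes breakdown of p65, fell by 0.79 (limma adjusted p = 0.000379). ZC3H12A was 0.642 to 0.9301 scaled FPKM with sh-NC and 1.35 to 2.86 in the 6 others, and was tested only through these. Without the leukocyte-rich library 1 rose, ZC3H12A, and 1 fell, PDLIM2 (CYLD 0.0782 and ITCH 0.0627, limma adjusted p), and with the replicate block CYLD rose and PDLIM2 fell. Of 32 other known target genes 16 rose and 1 fell in the same fit, with a median log2 difference of 0.80. Without the leukocyte-rich library 15 of 31 rose and none fell, where 1237 of all 11336 genes tested were higher and 702 lower. Among the 16 were 4 (CXCL2, IL6, NOS2 and PTGS2) below 1 scaled FPKM in every sh-NC library, which were tested only through their high libraries. LCN2, an iron-siderophore carrier of injured epithelium (3.18, limma adjusted p = 1.54e-06), and IRF1 (2.87, limma adjusted p = 6.16e-06) rose most. IL6 had the smallest rise (0.48, limma adjusted p = 0.0446, and not tested without the leukocyte-rich library), and CSF1 fell by 0.59 (limma adjusted p = 0.0265, or 0.0533 without the leukocyte-rich library). Many of these targets, IRF1 among them, are also induced by interferons.

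In bulk tumors, where 12.8% of all genes were higher and 8.52% lower, 11 of 33 other targets rose with sh-B7-H3 (1) and 1 fell. PTGES, 1 of the 11, was below 1 scaled FPKM in every sh-NC library. LCN2 rose most (2.93, limma adjusted p = 0.00308) and IER3 fell by 0.77 (limma adjusted p = 0.0307). Among the kinases and adaptors TRAF3 rose (0.47, limma adjusted p = 0.0326), and IRAK3, an inhibitory member of its family, fell by 0.95 (limma adjusted p = 0.00457), with 1 of 27 higher and 2 lower in all. Receptors gave 3 higher and 1 lower of 16, from IL18R1 (2.70, limma adjusted p = 0.00308) to TNFRSF9 (-1.995, limma adjusted p = 0.00372). The negative regulators ITCH (0.52, limma adjusted p = 0.0173) and CYLD (0.38, limma adjusted p = 0.0473) and the ligand TNFSF13B (0.98, limma adjusted p = 0.0183) rose. In the interaction none of the pathway genes in these lists passed.

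**Figure D4:**
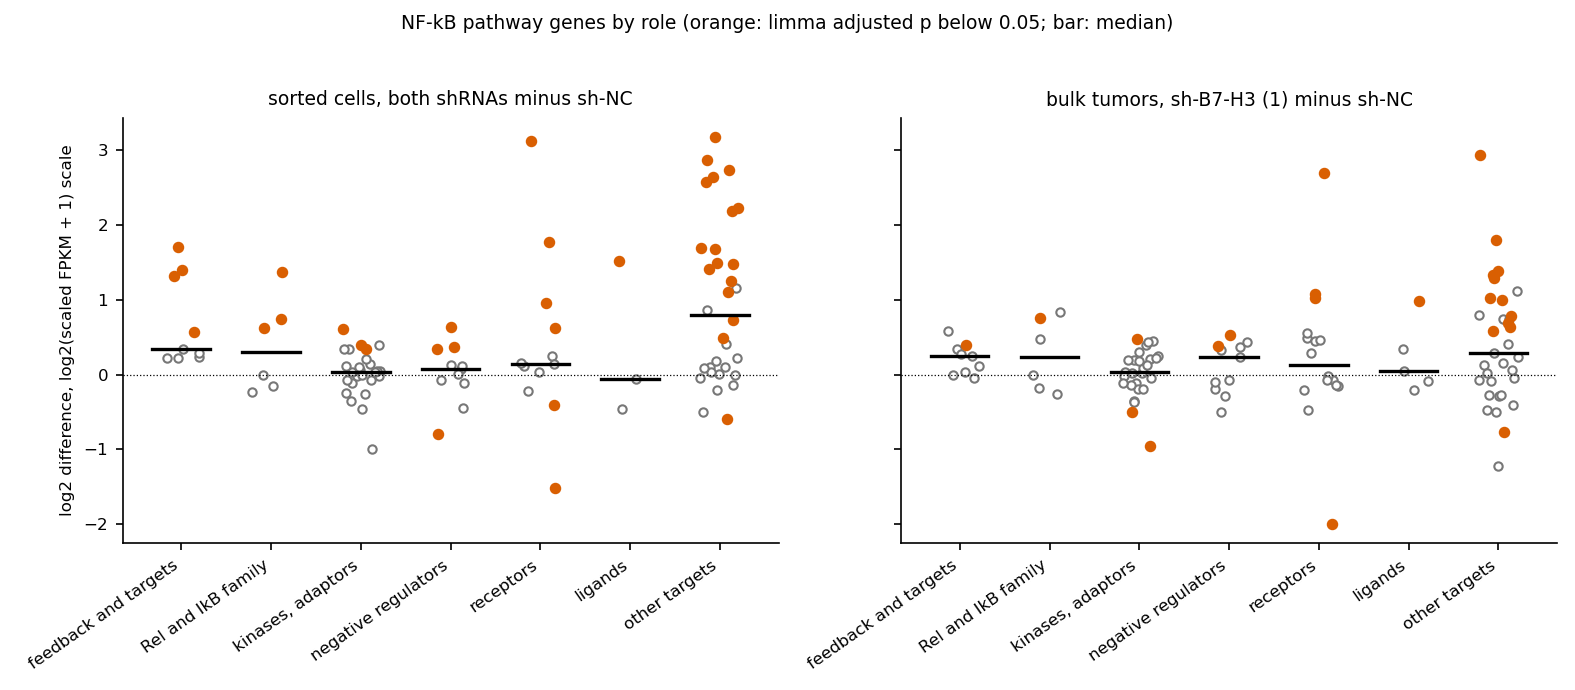
Log2 difference (vertical axis, log2(scaled FPKM + 1) scale) of tested genes in 7 groups by role, for sorted cells over both shRNAs (left) and bulk sh-B7-H3 (1) tumors (right), with 1 point per gene, orange where the test was passed, and a bar at the median. The other targets have the highest median in sorted cells, 0.80, while kinases and adaptors lie around 0.03.

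Across the 15 libraries, the genes whose log2 pattern was closest to a member, by root mean square difference after centring, were searched among 10041 genes. For NFKBIA they were PLAU (0.21) and METRNL (0.23), for TNFAIP3 NFKBIA (0.31) and C1RB (0.34), and for ICAM1 ABCG1 (0.28) and EPSTI1 (0.39). NFKBIA itself varied by 0.60 around its mean on this measure, TNFAIP3 by 0.72 and ICAM1 by 0.82. The closest genes were ICE1 and ARHGAP17 for NFKB1 (0.08 and 0.09), TOB2 and MCM2 for NFKB2 (both 0.11), and IGSF8 and DAGLB for RELB (both 0.13). They were UBASH3B and CEBPG for BIRC3 (both 0.13), USP40 and UAP1 for TRAF1 (0.12 and 0.14), and PTCD1 and LTBR for TNFAIP2 (0.06 and 0.07). These genes varied less themselves, NFKB1 and NFKB2 by 0.26, RELB by 0.31, BIRC3 by 0.27, TRAF1 by 0.21 and TNFAIP2 by 0.11. Their smaller distances therefore do not mean a closer likeness. The libraries of a group share their treatment, so likeness over 15 libraries is largely likeness over 5 groups.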

How the data were processed

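RNA of 105K tumors was sequenced in single-end runs of 75 cycles, giving 15 libraries in 5 groups of 3. The authors deposited FPKM values, 1 per gene and library, in a table whose name speaks of counts. The study's methods name the VIPER pipeline for differential expression, but the aligner, annotation and quantifier behind the table are not given in the sources used here. The submitters' processing notes name the mouse build mm10, and the paper and the labels name different library kits. A second deposited table, of filtered genes on a log2 scale, was not used. Date-like symbols (26 of 24917 entries) were dropped. Each library was rescaled by a median-ratio factor, computed on the 9872 genes that reached 1 FPKM in all 15 libraries, since MIR6236 held 6.01% to 79.7% of a library's FPKM. Log2 values with a pseudocount of 1 were compared with limma 3.58.1 (R 4.3.3), using a mean-variance trend, a filter of at least 1 scaled FPKM in 3 libraries and Benjamini-Hochberg adjustment. The fit was tested on simulated data. Single values were compared by exact permutation tests under Python 3.11.15 with scipy 1.17.1.

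Groups and replicate numbers came from the sample labels. The study's methods speak of biological samples, but neither they nor the labels say that each library came from a separate mouse, and p-values measure only the spread between these libraries. Read totals are unknown, so no counting interval is given for low values. Same-numbered libraries deviated together in every pair only between the shRNAs of sorted cells (correlations over genes 0.316, 0.330 and 0.357), and blocked values are printed there. The 10 genes, the pathway lists and the tests were chosen with earlier results of these data known. Named are all 10 genes, the Rel and IκB family with TNFRSF1A, TNFRSF1B, LTBR and MAP3K14, and in each other list the 2 largest and 2 smallest differences among genes that passed in sorted cells over both shRNAs, or the largest and smallest in bulk tumors. Promoter windows and gene positions are those of RefSeq, GRCm38.p6. Alternatives are described at the end.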

Additional observations from a re-analysis of the deposited data

Results flagged for a closer look

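Of the 10 genes screened among the 6 sorted libraries labelled sh-B7-H3, 2 had a library far from the others. ICAM1 measured 8.73 scaled FPKM and TNF 1.28 scaled FPKM in replicate 1 labelled sh-B7-H3 (2), the leukocyte-rich library. Chance would flag about 1 in 20 such sets if all 6 values came from 1 group. The screen pooled the 2 shRNAs, which did not overlap for ICAM1, so that rate need not hold here. Between the shRNAs in sorted cells, the limma test of the difference itself, (1) minus (2), passed for TNFAIP3 at -1.25 and for RELB at -0.52 on the log2 scale.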

How the results depend on the processing

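The number of the 9 tested genes that passed ranged, when 1 library was left out, from 2 to 4 over both shRNAs in sorted cells (4 with all libraries), from 1 to 3 with sh-B7-H3 (1) (2), from 3 to 7 with sh-B7-H3 (2) (6), from 0 to 3 between the shRNAs (2), from 0 to 2 in bulk tumors (1) and from 0 to 5 between bulk and sorted controls (3). Part of the lower ends reflects ICAM1 leaving the test rather than losing its call. It left when a library labelled sh-B7-H3 was dropped from the sorted comparison of that shRNA with sh-NC. It also left when a bulk sh-NC library was dropped between controls. With FPKM as deposited the counts were 1 between the shRNAs, 0 in bulk tumors and 1 between controls. With no filter TNFAIP3 lost its call over both shRNAs (limma adjusted p = 0.0668). Quantile normalization and the fit with no filter gave 1 each between the shRNAs, a filter on every library gave 1 with sh-B7-H3 (1), and 1 fit over all 15 libraries gave 4 with sh-B7-H3 (1) and 0 in bulk tumors. With the replicate block 5 passed between the shRNAs and 0 in bulk tumors, while RELB and TRAF1 with sh-B7-H3 (2) (limma adjusted p = 0.0814 and 0.114) and TNFAIP3 over both shRNAs (0.0653) lost their calls. In the comparisons other than that between the shRNAs, same-numbered pairs correlated between -0.54 and 0.45. The labels do not say whether the numbers pair libraries, and correlations with so few libraries in a group cannot decide it.

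Signs turned for differences near 0. Under quantile normalization these were NFKB1 (-0.016), NFKB2 (-0.038) and RELB (-0.037) with sorted sh-B7-H3 (1), RELB (-0.032), TNFAIP2 (0.072) and TRAF1 (-0.059) in bulk tumors, and TNFAIP3 (-0.086) and TRAF1 (-0.081) between controls. With FPKM as deposited they were TNFAIP2 in bulk tumors (0.029) and RELB in the interaction (0.13). Leaving out a library moved NFKB1, NFKB2 and RELB with sorted sh-B7-H3 (1) between -0.080 and 0.22, -0.093 and 0.18, and -0.037 and 0.053. It moved NFKB2, RELB and TNFAIP2 in bulk tumors between -0.16 and 0.045, -0.15 and 0.19, and -0.058 and 0.054. In the interaction NFKB2, RELB and TRAF1 ran from -0.054 to 0.22, -0.17 to 0.17 and -0.034 to 0.11. The causes were not tested. FPKM as deposited shifted the median log2 difference of all genes to 0.20 over both shRNAs, 0.17 with sh-B7-H3 (1) and 0.21 with sh-B7-H3 (2), and the split of calls over both shRNAs from 1439 higher and 905 lower to 1798 and 284. Quantile normalization gave 1250 and 1288.

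Over all genes, calls fell with the replicate block from 1497 to 915 with sh-B7-H3 (1), from 2150 to 1395 with sh-B7-H3 (2) and from 2520 to 1413 in bulk tumors, and rose from 382 to 1864 between the shRNAs. With FPKM as deposited 961 were called in bulk tumors and 652 between controls, against 1924. The interaction called 12 to 72 genes, against 56, when 1 library was left out. Between the shRNAs 137 were called with no filter, and between controls 1279 with the filter on every library and 3082 in 1 fit over all 15 libraries. With 1 library left out, calls over all genes ran from 1414 to 2584 over both shRNAs in sorted cells, 722 to 1948 with sh-B7-H3 (1), 962 to 3614 with sh-B7-H3 (2), 35 to 890 between the shRNAs, 546 to 3793 in bulk tumors and 139 to 4436 between controls. For the interaction the other settings gave 13 (filter on every library) to 128 (FPKM as deposited). ICAM1 could not be tested with the filter on every library in the comparisons that include sorted sh-NC cells.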
